A study of Mus musculus with 24 samples.

Results

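Potassium channel genes were followed in mouse cortex 1 day after an experimental stroke. They were taken as all rows whose symbol begins with Kcn, continues in lower-case letters and ends in a number, in each of 4 deposited expression tables. This gave 68 genes of the 14014 listed in all 4 tables. A gene counts as listed once the authors kept it, and 1 further gene of the family, Kcnh6, stood in only 1 table. The 68 genes were 24 pore subunits of voltage-gated channels, 9 modifier subunits, 7 auxiliary subunits, 10 inward rectifiers, 9 two-pore channels and 9 genes of calcium- or sodium-activated channels. These groups follow the symbol prefix, and Kcnu1 was placed in the last by its prefix only.

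The animals were male mice aged 3 to 4 months of the strain given as C57BL/6N-Cdr1asem1Nikr, and a filament closed the middle cerebral artery for 1 h before 1 day of reperfusion. Wild-type mice (WT) were compared with mice lacking ciRS-7 (KO), a circular RNA made from the Cdr1as locus that carries many binding sites for the microRNA miR-7. Each genotype had 6 animals, and each animal gave a cortex library marked CL and one marked PI. The labels do not spell out CL and PI, and the marks are used as given. There were thus 4 groups of 6 libraries, named CL WT and CL KO, PI WT and PI KO. All groups, CL included, come from operated animals, and no unoperated animal was analysed here.

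Potassium channels let potassium leave or enter a cell and so set its resting potential, shape and end action potentials, and limit repetitive firing. A voltage-gated channel is built of pore subunits that may be joined by silent modifier subunits and by auxiliary proteins that change its gating or its transport to the membrane. Inward rectifiers and two-pore channels set the resting potential, inward rectifiers of astrocytes take up potassium released by active neurons, and calcium- or sodium-activated channels link firing to ion entry. After an ischemic stroke, potassium leaves depolarised neurons, and these channels are part of how tissue around the lesion responds.

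Values are CPM (counts per gene scaled to a common total of reads) or log2 CPM. In every gene the 2 lowest and the 2 highest of 6 libraries in a group had been drawn in to the group's quartiles. The 4 inner values could be solved back. The range of a gene below therefore runs from the second lowest to the second highest library. Levels summed over genes use the deposited values as drawn in, and run from the lowest to the highest library. The depth read from the smallest step between values was 3.76 to 10.5 M reads (megareads) per library (median 6.92), and the lowest belonged to replicate 6 of CL KO. The lowest inner value of any of the 68 genes was 1.15 CPM, above the 3-read limit of every library (0.285 to 0.797 CPM). Cdr1as checked the labels. Its inner values were 3386 to 3809 CPM in CL WT and 2594 to 3004 CPM in PI WT, and at most 0.148 CPM (CL KO) and 0.169 CPM (PI KO), under 3 reads. Markers of neurons, 10 of 10 listed, were present in all libraries. Their summed level was 8945 to 9482 CPM in CL WT.

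The genes differed widely in level. Per kilobase of annotated exon, levels in CL WT ran from 0.464 to 110 CPM, with a median of 7.20. Kcna1 stood highest at 110 CPM per kilobase, followed by Kcna2 at 52.3. Both encode subunits of low-threshold Kv1 channels in axons. Kcnh7 (an ERG channel) followed at 47.9, Kcnj3 (a subunit of G-protein-gated inward rectifiers) at 46.1 and Kcnv1 (a silent subunit) at 40.8 CPM per kilobase. At the other end, 25 of the 68 genes stood under 3 CPM per kilobase. Kcnu1, a channel best known from sperm, was lowest at 0.464 CPM per kilobase.

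The first comparison set PI against CL within WT. Most change was downward: 17 of the 68 genes fell and 2 rose, at an adjusted p under 0.05. Over all 14489 genes of the same table, 10.6% were called, 5.4% as lower and 5.2% as higher. Of the 68 genes, 48 had a log2 fold change below 0, against 47.7% of all genes. The median log2 fold change was -0.16 for the 68 genes and 0.01 for all genes. The inner values of PI and CL did not overlap in 27 of the 68 genes, and in 26.3% of all genes. Summed over the 68 genes, the deposited values were 6134 to 6459 CPM in the CL WT libraries and 5116 to 5353 CPM in the PI WT libraries, with no overlap.

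In KO the picture was similar. From CL to PI, 15 of the 68 genes fell and 1 rose. Of 14338 genes in that table, 10% were called, 4.94% as lower and 5.11% as higher. The median was -0.18 for the 68 genes and 0.00 for all genes, and 45 of the 68 were below 0, against 50.1% of all genes. Inner values did not overlap in 30 of the 68 genes, against 26.8% of all genes. The summed deposited values were 5990 to 6191 CPM in CL KO and 5053 to 5289 CPM in PI KO. The 2 comparisons share no library, and 14 genes were called in both, all in the same direction. That is 73.7% of the calls in WT and 87.5% of those in KO. Of these, 13 fell and 1, Kcnip3, rose. Over the 68 genes the 2 sets of fold changes had Pearson's r of 0.84 and Spearman's rho of 0.84, given as a description, since genes are not independent. The sign was shared by 57 of 68. These overlaps are not given over all genes, so they are not shown to be particular to potassium channel genes.

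**Figure D1:**
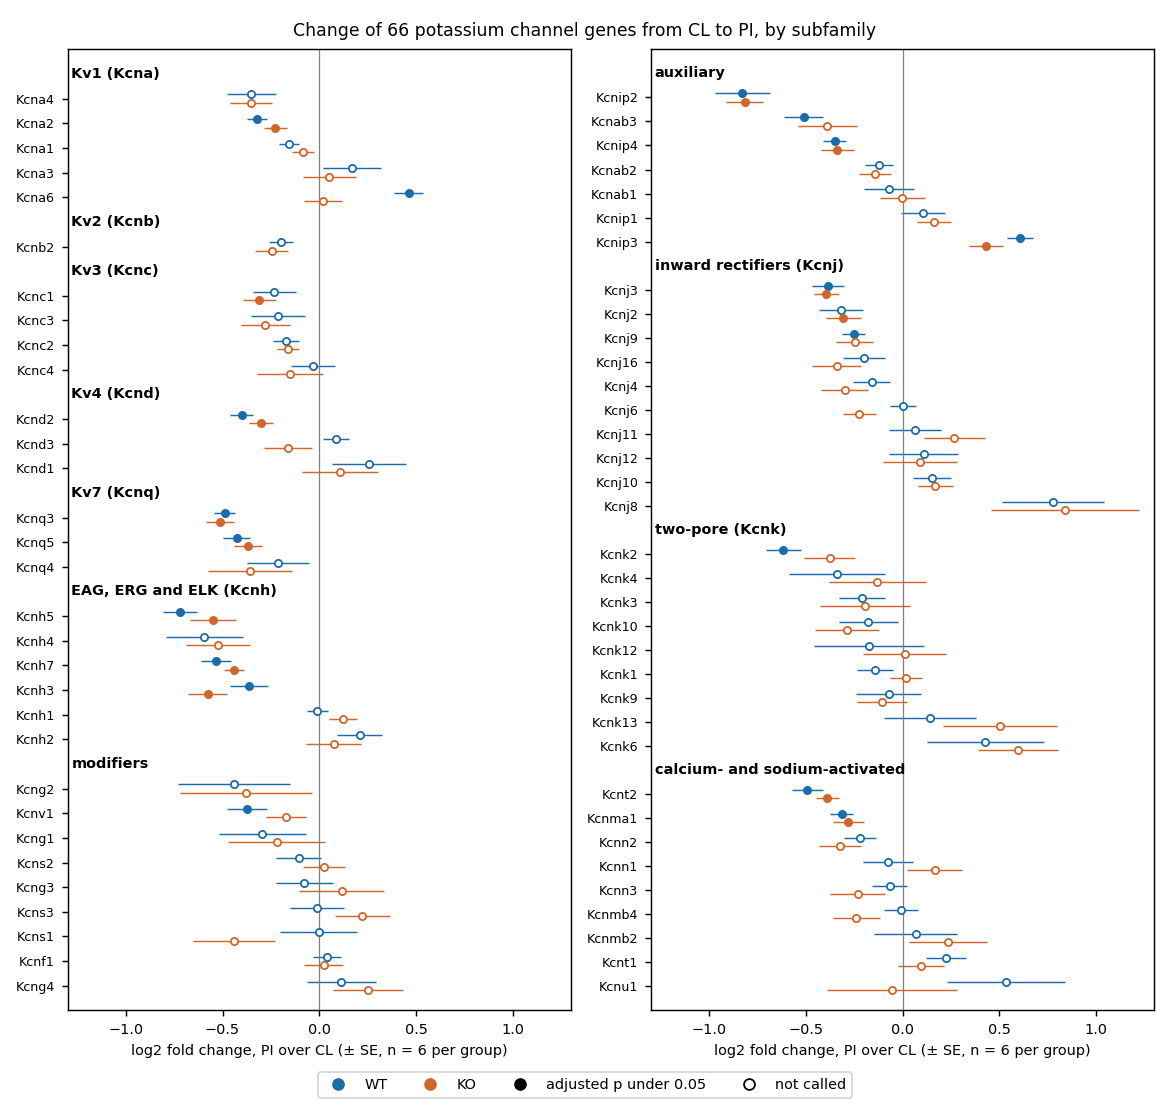
Log2 fold change from CL to PI for 66 of the 68 genes, grouped by subfamily, with bars of ± SE (n = 6 libraries per group). WT is blue and KO orange, and filled points mark an adjusted p under 0.05. Filled points lie left of 0 apart from Kcnip3 in both genotypes and Kcna6 in WT.

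These counts depend on how the spread of a gene is estimated. With a prior variance that does not follow expression level, 16 of the 68 passed in WT and 8 in KO. Kcnh3, Kcnj3 and Kcnv1 lost their call in WT, and Kcna2, Kcnc1, Kcnd2, Kcnh5, Kcnip4, Kcnj2 and Kcnma1 were among the 8 that lost theirs in KO. With limma on the deposited values as they stand, whose spread within groups was drawn in, 45 passed in WT and 46 in KO. For these settings, here and below, the share of all genes called is not given, so the counts have no background beside them.

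The falls lay among the more highly expressed channels. Of the 34 genes at or above the median level of the 68, 17 fell and 1 rose in WT, while of the 34 below it none fell and 1 rose. By unadjusted p under 0.05, 22 and 2 genes were lower. Lower calls were more frequent among highly expressed genes in general. In the upper quartile of all genes by level in CL WT, 14.5% were called lower, against 13 of the 24 potassium channel genes in that quartile. In KO the upper quartile held 13.1% of genes called lower and 12 of 24 potassium channel genes.

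**Figure D2:**
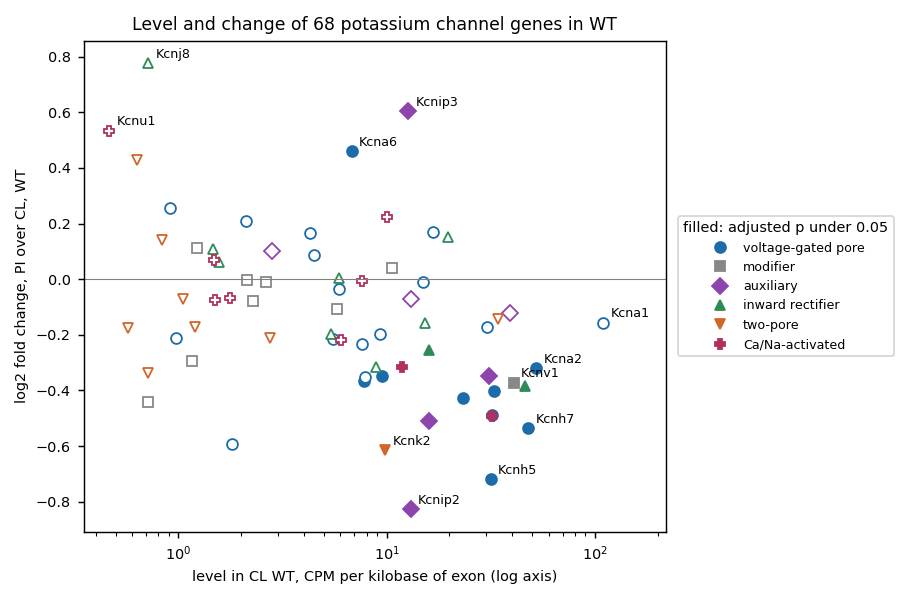
Log2 fold change from CL to PI in WT against the level in CL WT in CPM per kilobase of exon (log axis), 1 point per gene, with the marker giving the class of channel. Filled points (adjusted p under 0.05) lie between 6.80 (Kcna6) and 52.3 (Kcna2) CPM per kilobase, and the most abundant gene, Kcna1, is not among them.

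Among the 24 pore subunits of voltage-gated channels, 8 fell and 1 rose in WT, and 9 fell in KO. The Kcnh genes, whose products are the slowly gating EAG, ERG and ELK channels, held the largest falls of this class. Of 6 Kcnh genes, 3 fell in each genotype, the same 3. Kcnh5 (EAG2, ENSMUSG00000034402.3, chr12:74897220-75177332, minus strand, GRCm38) stood at 120 to 141 CPM in CL WT, with a median of 127. In PI WT it stood at 70.2 to 86.1 CPM, with a median of 78.2. All inner values in PI WT lay below those in CL WT. The log2 fold change was -0.72 (SE 0.09, adjusted p = 0.000353). Kcnh5 stood at 107 to 126 CPM in CL KO and 70.2 to 95.2 CPM in PI KO, with a log2 fold change of -0.55 (SE 0.12, adjusted p = 0.0130).

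Kcnh7 (ERG3, ENSMUSG00000059742.10, chr2:62693414-63184287, minus strand) stood at 662 to 787 CPM in CL WT and 475 to 541 CPM in PI WT. In KO the ranges were 687 to 741 CPM in CL and 507 to 527 CPM in PI. The groups did not overlap in either genotype, and Kcnh7 fell by 0.54 (SE 0.08, adjusted p = 0.000976) in WT and by 0.44 (SE 0.05, adjusted p = 0.000250) in KO. Kcnh3 (ELK2, a channel of forebrain neurons) had medians of 44.9 CPM in CL WT and 34.8 in PI WT, and of 51.1 in CL KO and 33.4 in PI KO. It fell by 0.36 (SE 0.10, adjusted p = 0.0323) in WT and by 0.58 (SE 0.10, adjusted p = 0.00384) in KO. Kcnh4, the other ELK gene among the 68, had log2 fold changes of -0.59 and -0.52 that did not pass (adjusted p = 0.0780 in WT and 0.0668 in KO), while Kcnh1 and Kcnh2 lay between -0.01 and 0.21.

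The Kcnq genes encode Kv7 channels, which carry the M-current that restrains repetitive firing. Of 4, 2 fell in both genotypes. Kcnq3 (ENSMUSG00000056258.9, chr15:65986387-66286642, minus strand) stood at 462 to 492 CPM in CL WT and 323 to 350 CPM in PI WT. In KO its median went from 438 to 317 CPM. Every inner value in PI was below every inner value in CL in both genotypes. The log2 fold change was -0.49 (SE 0.05, adjusted p = 0.000141) in WT and -0.51 (SE 0.07, adjusted p = 0.000809) in KO. Kcnq5 fell by 0.43 (SE 0.07, adjusted p = 0.00172) in WT, from a median of 179 to 134 CPM, and by 0.37 (SE 0.07, adjusted p = 0.00670) in KO.

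Of the Kv4 genes, which carry the fast A-type current of dendrites, Kcnd2 fell and the other two did not pass. Kcnd2 (Kv4.2, ENSMUSG00000060882.5, chr6:21215503-21729805, plus strand) stood at 166 to 174 CPM in CL WT and 120 to 136 CPM in PI WT. In KO, Kcnd2 stood at 138 to 155 CPM in CL and 118 to 124 CPM in PI. It fell by 0.40 (SE 0.06, adjusted p = 0.00119) in WT and by 0.30 (SE 0.06, adjusted p = 0.00983) in KO. Kcnd3 (Kv4.3) had medians of 42.0 CPM in CL WT and 45.6 in PI WT, with a log2 fold change of 0.09 (SE 0.07, adjusted p = 0.492). In KO its medians were 51.4 CPM in CL and 46.4 in PI, with a log2 fold change of -0.16 (SE 0.12, adjusted p = 0.459). The Kcnd3 changes in KO and WT differed by -0.25 (SE 0.15, adjusted p = 0.992), and in CL its level was 0.26 (log2, SE 0.11, unadjusted p = 0.0395, adjusted p = 0.834) higher in KO than in WT, so that neither passed over all genes.

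The Kv1 group was mixed. Kcna2 (Kv1.2) had medians of 623 CPM in CL WT and 499 in PI WT, and fell by 0.32 (SE 0.05, adjusted p = 0.00165) in WT and by 0.23 (SE 0.06, adjusted p = 0.0277) in KO. Kcna1 (Kv1.1) stood at 512 to 539 CPM in CL WT and 450 to 496 CPM in PI WT, which did not overlap, but its log2 fold change of -0.16 (SE 0.05, adjusted p = 0.0862) did not pass. It passed in WT, with -0.19, once each library was centred on its median gene. Kcna3 (Kv1.3), known also from microglia and T cells, had medians of 8.32 CPM in CL WT and 9.46 in PI WT with overlapping ranges (log2 fold change 0.17, SE 0.15, adjusted p = 0.561).

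Kcna6 (Kv1.6, ENSMUSG00000038077.7, chr6:126708329-126740674, minus strand) rose in WT and was the pore subunit whose change differed most between genotypes by p. It stood at 37.8 to 42.6 CPM in CL WT and 52.3 to 59.9 CPM in PI WT, without overlap. The log2 fold change was 0.46 (SE 0.08, adjusted p = 0.00234). In KO it stood at 43.4 to 53.4 CPM in CL and 46.1 to 53.3 CPM in PI, fully overlapping (log2 fold change 0.02, SE 0.10, adjusted p = 0.925). The difference between the changes was -0.44 (SE 0.13, unadjusted p = 0.00289), and over all genes it did not pass (adjusted p = 0.992). Exons of Gm26673 on the opposite strand cover 39.6% of the Kcna6 exons, and whether reads were counted by strand is not given in the sources used here. The row for Gm26673 itself had medians of 2.91 CPM in CL WT and 3.06 in PI WT. Of the 21 genes called in either genotype, 12 share exon bases with another annotated gene on the opposite strand, in Kcnj3 over 31.1% of its exons (Gm26794) and in the other 10 over 0.02% to 12.2%.

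The Kv3 genes serve fast-spiking cells. Kcnc1 (Kv3.1) fell in KO by 0.31 (SE 0.09, adjusted p = 0.0370), from a median of 76.9 to 61.1 CPM, and had a log2 fold change of -0.23 (adjusted p = 0.223) in WT. Kcnc2 (Kv3.2), the most abundant of that group per kilobase at 30.2 CPM, had -0.17 in WT (adjusted p = 0.123) and -0.16 in KO (adjusted p = 0.0879), with no overlap of inner values in either genotype.

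The 9 modifier subunits have no channel of their own and alter Kv2 channels. Only Kcnv1 (Kv8.1) passed, in WT, where it stood at 177 to 191 CPM in CL and 122 to 165 CPM in PI and fell by 0.37 (SE 0.10, adjusted p = 0.0360). The ranges in CL KO and PI KO, 181 to 225 and 159 to 197 CPM, overlap, with a log2 fold change of -0.17 (SE 0.10, adjusted p = 0.328). The difference between those changes was 0.20 (SE 0.16, adjusted p = 0.992). Kcng2, among the lowest-expressed modifiers, stood at 1.87 to 2.36 CPM in CL WT and 1.29 to 2.12 CPM in PI WT, and its log2 fold change of -0.44 had an SE of 0.29.

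The auxiliary subunits held the largest called changes in both directions. Kcnip2 encodes KChIP2, a calcium sensor that brings Kv4 channels to the membrane. Kcnip2 (ENSMUSG00000025221.15, chr19:45791839-45816061, minus strand) stood at 39.6 to 48.4 CPM in CL WT, with a median of 47.0, and at 21.7 to 30.5 CPM in PI WT, with a median of 25.4. In KO it stood at 38.2 to 46.0 CPM in CL and 22.2 to 25.7 CPM in PI. The inner values in PI lay wholly below those in CL in both genotypes. The trimmed mean went from 5.50 ± 0.09 to 4.68 ± 0.17 log2 CPM in WT (SE, n = 6), a log2 fold change of -0.83 (SE 0.14, adjusted p = 0.00287), or a change of -43.6%. In KO it went from 5.40 ± 0.08 to 4.59 ± 0.06 log2 CPM (SE, n = 6), a change of -0.82 (SE 0.10, adjusted p = 0.000302).

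Kcnip3 encodes KChIP3, also known as the transcriptional repressor DREAM and as calsenilin. Kcnip3 (ENSMUSG00000079056.12, chr2:127456498-127522094, minus strand) stood at 42.9 to 47.4 CPM in CL WT and 64.9 to 70.3 CPM in PI WT. In KO it stood at 47.9 to 57.3 CPM in CL and 66.5 to 76.5 CPM in PI. The inner values in PI lay wholly above those in CL in both genotypes. Kcnip3 rose by 0.60 (log2, SE 0.07, adjusted p = 0.000141) in WT and by 0.43 (SE 0.09, adjusted p = 0.00882) in KO. Per kilobase in CL WT, Kcnip2 at 13.0 CPM and Kcnip3 at 12.7 CPM stood at like levels.

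Promoter windows, 250 bases before to 50 after the start of a transcript, were found in RefSeq (GRCm38.p6) for 47 of the 68 genes and searched on both strands for 6 motifs of stress- and activity-driven factors. The windows of Kcnip3 and Kcnip2 are shown because these related genes changed in opposite directions. Kcnip3 has 3 windows, of which the one holding a motif is shown, and no motif was found in the other 2. The Kcnip3 window shown is at chr2:127522045-127522344 and the Kcnip2 window at chr19:45816014-45816313, both on the minus strand and printed 5′ to 3′. Capitals mark the AP-1 motif TGACTCA, which the Kcnip2 window does not hold.
Kcnip3 promoter: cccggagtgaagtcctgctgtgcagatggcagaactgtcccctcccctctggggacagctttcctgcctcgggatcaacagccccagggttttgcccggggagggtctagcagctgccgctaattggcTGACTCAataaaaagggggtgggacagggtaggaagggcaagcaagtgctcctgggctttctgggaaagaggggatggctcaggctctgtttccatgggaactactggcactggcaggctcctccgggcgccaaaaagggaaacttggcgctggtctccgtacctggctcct
Kcnip2 promoter: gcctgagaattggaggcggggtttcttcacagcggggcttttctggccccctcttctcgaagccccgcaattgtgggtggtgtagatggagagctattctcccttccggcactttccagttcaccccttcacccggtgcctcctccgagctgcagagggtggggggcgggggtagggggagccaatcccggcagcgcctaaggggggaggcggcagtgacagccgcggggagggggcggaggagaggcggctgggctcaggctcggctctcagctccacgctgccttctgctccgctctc
AP-1 was found in 2 of the 47 genes with a window, Kcnip3 and Kcnk2 (4.26%), and in 4.19% of 10207 genes. Of these 2, Kcnip3 rose in both genotypes and Kcnk2 fell in WT. The hypoxia core ACGTG was found in 6 (12.8%, against 29.4% of all genes) and the E-box CACGTG, which contains that core, in 3 (6.38%, against 11.8%). The CRE TGACGTCA (3.64% of all genes), the EGR motif GCGTGGGCG (1.40%) and the NF-kB motif (0.176%) were found in none of the 47. Of the 13 genes that fell in both genotypes, 10 had a window, and none of the 6 motifs was in it. A match describes these letters in this window and not binding.

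Kcnip4 (KChIP4) fell by 0.35 (SE 0.06, adjusted p = 0.00261) in WT, from a median of 112 to 89.1 CPM, and by 0.34 (SE 0.09, adjusted p = 0.0276) in KO. Kcnab3, a beta subunit of Kv1 channels, fell in WT by 0.51 (SE 0.10, adjusted p = 0.00583), from a median of 44.7 to 32.3 CPM. Its log2 fold change in KO was -0.39 (SE 0.15, adjusted p = 0.132), with overlapping ranges. The deposited values were lower in PI in 6 of 6 animals, but the solved values place PI above CL in KO animal 5. Kcnab2, the most abundant auxiliary gene per kilobase at 39.3 CPM, had -0.12 in WT (adjusted p = 0.330) and -0.14 in KO (adjusted p = 0.305). Kcnab1 and Kcnip1 lay between -0.07 and 0.16.

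**Figure D3:**
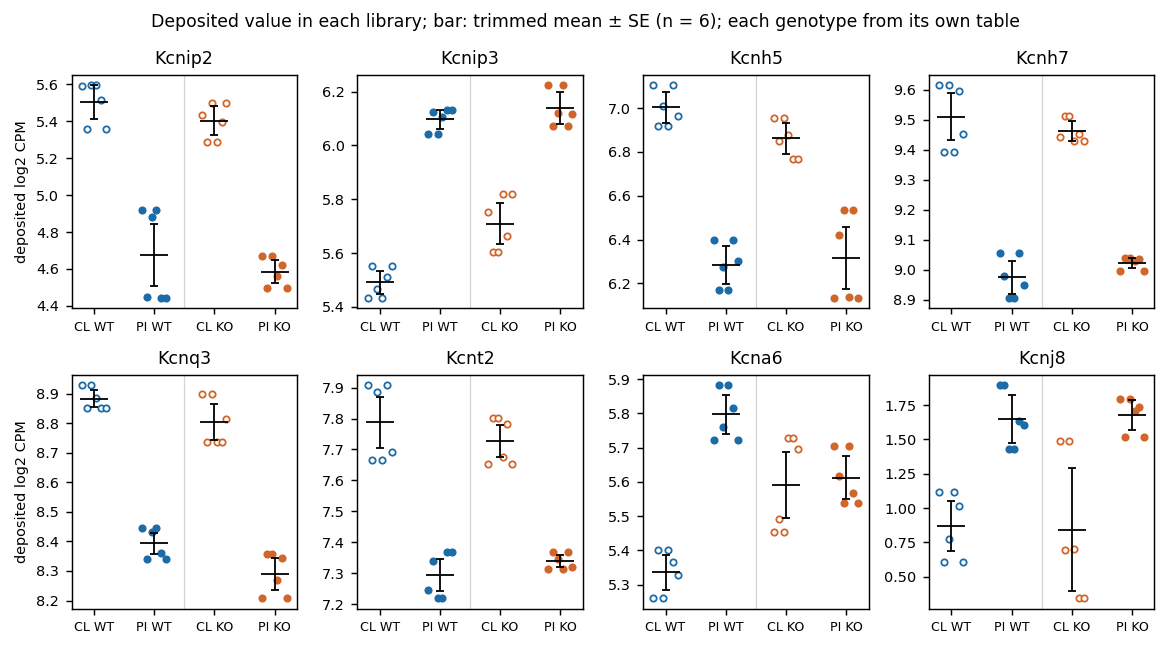
Deposited log2 CPM of 8 genes in each library, WT in blue and KO in orange, CL open and PI filled, with bars for the trimmed mean ± SE (n = 6). The lowest and highest points of each group are drawn in to the group's quartiles. PI lies below CL for Kcnip2, Kcnh5, Kcnh7, Kcnq3 and Kcnt2 and above it for Kcnip3, while Kcna6 is separated in WT only and Kcnj8 is at the low end of expression.

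Among the 10 inward rectifiers, 2 fell in each genotype. The G-protein-gated subunit Kcnj3 (GIRK1, ENSMUSG00000026824.11, chr2:55435970-55598145, plus strand) stood at 223 to 268 CPM in CL WT and 168 to 197 CPM in PI WT. In KO its ranges were 213 to 237 CPM in CL and 160 to 178 CPM in PI. It fell by 0.38 (SE 0.08, adjusted p = 0.0106) in WT and by 0.39 (SE 0.06, adjusted p = 0.00257) in KO. Its partner subunit Kcnj9 (GIRK3) fell by 0.25 (SE 0.06, adjusted p = 0.0149) in WT and had the like value of -0.25 (SE 0.10, adjusted p = 0.128) in KO. The third cortical subunit of these channels, Kcnj6 (GIRK2), had a log2 fold change of 0.00 (SE 0.07) in WT and of -0.22 (SE 0.08, adjusted p = 0.120) in KO. That difference of -0.23 (SE 0.11, unadjusted p = 0.0488) did not pass over all genes (adjusted p = 0.992).

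Kcnj2 (Kir2.1), found in neurons and in vascular endothelium, fell in KO by 0.31 (SE 0.09, adjusted p = 0.0488) and had -0.32 (SE 0.11, adjusted p = 0.0988) in WT. The astrocyte channel genes did not pass. Kcnj10 (Kir4.1, the main potassium-buffering channel of astrocytes) stood at 99.6 to 113 CPM in CL WT and 105 to 136 CPM in PI WT, and its log2 fold change was 0.15 (SE 0.10, adjusted p = 0.384) in WT and 0.17 (SE 0.09, adjusted p = 0.271) in KO. It was higher in PI in 6 of 6 animals of each genotype by the deposited values, but these were drawn in to quartiles. In WT animal 4 the CL value was drawn in, and the solved values place it above the PI value of 112.6 CPM. Kcnj16 (Kir5.1), which pairs with Kir4.1, had -0.20 (adjusted p = 0.300) in WT and -0.34 (adjusted p = 0.110) in KO.

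Kcnj8 (Kir6.1, the pore of the ATP-sensitive channel of pericytes and vascular smooth muscle) had the highest fold change of the 68 in both genotypes without passing. It stood at 1.46 to 2.21 CPM in CL WT and 2.58 to 3.94 CPM in PI WT, which do not overlap, and at 1.17 to 3.36 CPM in CL KO and 2.74 to 3.52 CPM in PI KO, which do. The log2 fold change was 0.78 (SE 0.26, adjusted p = 0.0839) in WT and 0.84 (SE 0.38, adjusted p = 0.194) in KO. Abcc9, the regulatory subunit of the same channel, had 0.25 (SE 0.09, adjusted p = 0.0995) in WT and 0.31 (SE 0.10, adjusted p = 0.0684) in KO. The 5 pericyte markers had a median of -0.10 in WT and -0.06 in KO.

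Of the 9 two-pore genes, Kcnk2 fell, in WT. Kcnk2 (TREK-1, a channel opened by stretch, acid and lipids; ENSMUSG00000037624.15, chr1:189207930-189402273, minus strand) stood at 42.8 to 51.6 CPM in CL WT and 29.3 to 33.3 CPM in PI WT. The log2 fold change was -0.62 (SE 0.09, adjusted p = 0.00113). In KO, Kcnk2 stood at 42.6 to 49.2 CPM in CL and 28.5 to 40.9 CPM in PI, again without overlap, with -0.38 (SE 0.13, adjusted p = 0.0911). The difference between the changes was 0.24 (SE 0.17, adjusted p = 0.992). Kcnk1 (TWIK-1), the most abundant of these genes at 34.1 CPM per kilobase, had -0.14 (adjusted p = 0.390) in WT and 0.02 (adjusted p = 0.921) in KO. Kcnk6 (TWIK-2), a channel known from macrophages, had medians of 2.71 CPM in CL WT and 3.43 in PI WT, and of 2.73 in CL KO and 4.10 in PI KO, with log2 fold changes of 0.43 (SE 0.30, adjusted p = 0.438) and 0.60 (SE 0.21, adjusted p = 0.0879). Kcnk13 (THIK-1), the resting potassium channel of microglia, had 0.14 (SE 0.24) in WT and 0.50 (SE 0.29, adjusted p = 0.322) in KO.

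Among the 9 genes grouped as calcium- and sodium-activated channels, the same 2 fell in both genotypes. Kcnt2 (SLICK, opened by sodium entry; ENSMUSG00000052726.15, chr1:140246158-140612067, plus strand) stood at 202 to 241 CPM in CL WT and 148 to 167 CPM in PI WT. In KO it stood at 200 to 224 CPM in CL and 159 to 166 CPM in PI. The ranges did not overlap, and Kcnt2 fell by 0.49 (SE 0.08, adjusted p = 0.00209) in WT and by 0.39 (SE 0.06, adjusted p = 0.00169) in KO. Kcnt1, its relative, had 0.22 (adjusted p = 0.211) and 0.09 (adjusted p = 0.685). Kcnma1 (the pore of BK channels) fell by 0.32 (SE 0.06, adjusted p = 0.00530) in WT, from a median of 203 to 163 CPM, and by 0.28 (SE 0.08, adjusted p = 0.0416) in KO. The SK genes Kcnn1, Kcnn2 and Kcnn3 did not pass in either genotype. Kcnu1 had 0.53 (SE 0.31, adjusted p = 0.324) in WT at medians of 1.79 and 2.61 CPM.

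Partner proteins that assemble with or anchor these channels were looked at together with related channels, as a list of 24 genes, of which 20 were listed. In WT 8 fell and none rose, and in KO 7 fell and none rose, with medians of -0.15 and -0.22. Log2 fold changes above 0 were found for 6 of the 20 in WT and 5 in KO. The highest was that of Hcn3 (0.30 in WT and 0.35 in KO). Cntnap2, which clusters Kv1 channels along axons, fell by 0.44 (SE 0.05, adjusted p = 0.000351) in WT and by 0.43 (SE 0.07, adjusted p = 0.00233) in KO. Dpp10, a Kv4 partner, fell by 0.32 (SE 0.07, adjusted p = 0.00754) and 0.30 (SE 0.06, adjusted p = 0.00706). Lrrc55, an auxiliary subunit of BK channels, fell by 0.70 (SE 0.12, adjusted p = 0.00325) and 0.50 (SE 0.10, adjusted p = 0.00914). Ank3, which anchors Kv7 and sodium channels at the axon initial segment, fell by 0.19 (SE 0.06, adjusted p = 0.0487) and 0.32 (SE 0.05, adjusted p = 0.00179). Other ion channels fell as well: 4 of 10 voltage-gated sodium channel genes in WT and 5 in KO, with none higher. A list of 21 genes was taken by calcium channel symbol alone (Cacna, Cacnb and Cacng), whether or not the product is part of such a channel. Of these, 5 fell and 1 rose in WT, and 6 fell in KO. Beside these lists and the markers below, 5.4% of all genes were called lower in WT and 4.94% in KO. Higher calls made up 5.2% and 5.11%. In the upper quartile of all genes by level in CL, 14.5% were called lower in WT and 13.1% in KO.

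Markers of cell types moved between CL and PI too. Of the 10 neuronal markers, 9 were below 0 in WT and 3 fell, with a median of -0.22, and 10 were below 0 in KO and 4 fell, with a median of -0.23. Their summed deposited values, with the spread drawn in, were 7672 to 8405 CPM in PI WT against 8945 to 9482 in CL WT. In KO they were 7422 to 8156 CPM in PI against 8764 to 9160 in CL. The 6 interneuron markers did not move as a set, with medians of 0.04 in WT and 0.01 in KO, and 3 below 0 and 3 above 0 in each. Of these, 1 was called lower in WT and 1 higher in KO. The 8 microglial markers had medians of 0.41 in WT and 0.47 in KO, with 4 higher and 1 lower in each. The 8 astrocyte markers had medians of -0.14 and -0.12, the 8 oligodendrocyte markers -0.36 and -0.10 and the 7 endothelial markers 0.30 and 0.19. None of 8 neutrophil and monocyte markers was listed in the tables of PI against CL. In bulk tissue fewer cells of a type and less RNA per cell cannot be told apart, and the part of these markers in the changes of the potassium channel genes was not tested.

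The comparisons of KO with WT asked whether loss of ciRS-7 altered these genes within CL or within PI. None of the 68 genes passed in either, by the trimmed-mean test. In PI, 3 of 14452 genes passed (0.0208%), and in CL 4 of 14323 (0.0279%). At an unadjusted p under 0.05 there were 3 of the 68 in PI and 5 in CL, against 5.75% and 5.73% of all genes. The median log2 fold change of the 68 was 0.01 in PI and 0.00 in CL. Limma on the deposited values, with the drawn-in spread, called 7 genes in PI and 13 in CL. The summed levels of the 68 genes overlapped, with 5175 to 5414 CPM in PI KO and 5217 to 5455 in PI WT, and 5885 to 6082 CPM in CL KO and 5993 to 6306 in CL WT.

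Among the genes with the smallest p in PI were Kcng3, Kcnv1 and Kcna6. Kcng3, a modifier subunit, was 0.45 higher in PI KO (log2, SE 0.15, adjusted p = 0.854), and Kcnv1 0.35 higher (SE 0.12, adjusted p = 0.854). Kcna6 was at -0.18 (SE 0.08). In CL the smallest p belonged to Kcna1 at -0.14 (SE 0.05, adjusted p = 0.773), Kcnd2 at -0.17 (SE 0.06, adjusted p = 0.793), Kcna6 at 0.26 (SE 0.09, adjusted p = 0.795) and Kcnip3 at 0.23 (SE 0.08, adjusted p = 0.797). The change from CL to PI did not differ by genotype for any of the 68 at the threshold, nor for any of 14211 genes (0.0%). By unadjusted p, 2 of the 68 passed, Kcna6 and Kcnj6, against 4.55% of all genes. Limma on the deposited values called 4 of the 68, a count with the same limit and no share of all genes beside it. A p that misses the threshold does not show that the genotypes were equal.

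**Figure D4:**
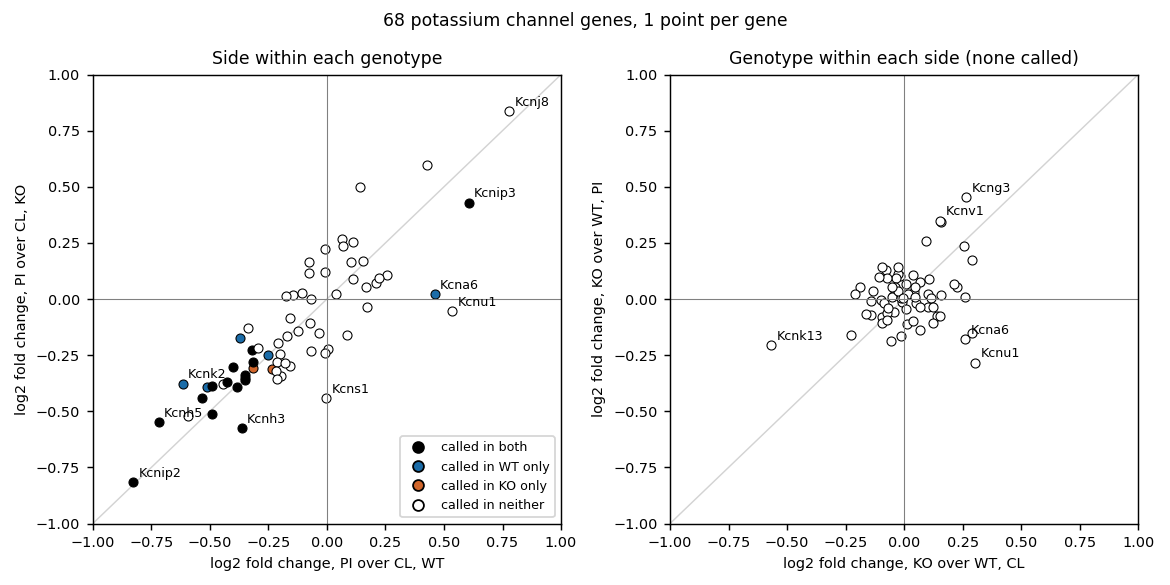
Left, log2 fold change from CL to PI in KO against that in WT, 1 point per gene, filled by where the adjusted p was under 0.05, with the line of equal change. Right, KO against WT within PI plotted against the same within CL. On the left the points follow the line of equal change, with Kcna6 as the called gene farthest from it, and on the right no gene passed in either comparison.

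Since ciRS-7 binds miR-7, matches to miR-7 were located in the annotated 3′ untranslated regions of the 68 genes (GENCODE M21, GRCm38). The mature sequences, from RefSeq, share their seed, bases 2 to 8, in capitals.
mmu-miR-7a-5p: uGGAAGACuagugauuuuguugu
mmu-miR-7b-5p: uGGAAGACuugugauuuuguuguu
A match to the seed reads GTCTTCC. It was found in 15 of the 68 genes (22.1%) and in 18.1% of 12222 genes with such a region. The stronger form, followed by an A, was found in 4 (5.88%, against 5.48% of all genes). These 4 sites are shown with the seed match in capitals, since they are where miR-7 could pair best. The coordinates are of the 7 capital bases.
Kcnq3 (chr15:65992398-65992404, minus strand): ctgctttttggGTCTTCCagagtgtggtca
Kcnab2 (chr4:152391253-152391259, minus strand): tctgagaggttGTCTTCCacacccactctc
Kcnf1 (chr12:17174594-17174600, minus strand): gagctgcttgtGTCTTCCagccctcccctg
Kcnk6 (chr7:29222280-29222286, minus strand): catatgtgtgaGTCTTCCaccctacacaaa
In CL the median log2 fold change of KO over WT was 0.01 for the 15 genes with a match and -0.01 for the 53 without. In PI the medians were 0.03 and 0.01. The 4 genes above lay between -0.07 and 0.11 in CL and between -0.09 and 0.26 in PI, and none passed. A match is a description of sequence and not of binding.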

How the data were processed

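Total RNA of mouse cortex was depleted of ribosomal RNA and sequenced in 24 libraries from 12 animals, with TRIzol, TURBO DNA-free, RiboCop and the CORALL total RNA kit per the labels' protocols. The deposited values are log2 CPM in 4 tables, 1 for each pair of groups, which the authors scaled separately, so that each test and each comparison of levels uses 1 table. The build is mm10 per the submitters' processing notes. The aligner, the counter, its use of strand, and the filter on genes are not given in the sources used here. In 100% of genes the 2 lowest and 2 highest of 6 values in a group were tied at quartiles of the group, a step that no label records. The 4 inner values were solved from these ties, and the lowest and the highest cannot be. Depth was taken from the largest step that made low inner values whole multiples of 1 read, and 81.1% to 90.3% were whole within 0.03 read. In replicate 6 of CL KO, the shallowest library, 88.6% and 90.3% were whole in its 2 tables, and at a step 0.5 times as large only 0.455% and 0.483% fell on the odd multiples that a greater depth would fill. Limits of 3 reads cover counting error only.

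Each gene was tested with a moderated trimmed-mean test: the mean of the 4 inner values per group, an error from the drawn-in sum of squares (6 degrees of freedom, or 12 for the interaction), and limma's (version 3.58.1, R 4.3.3) moderation of variances with a trend on expression. Tests were two-sided with Benjamini-Hochberg adjustment over all genes of a table, with calls made under 0.05. The CL and PI libraries were treated as independent groups, so the pairing by animal was not used. The test was tried on simulated data. The interaction is the KO change (PI less CL) less the WT change. An SE is that of a difference, or, after ±, of a group's trimmed mean. Changes by animal use the deposited values, where drawing in can alter the order of CL and PI within an animal. Positions and exon lengths come from GENCODE M21 (GRCm38), and all 68 genes matched by symbol. Alternatives were no trend, a centring of libraries, a pseudocount of 0.5 CPM, a filter at 1 CPM, limma on the deposited values, a block for the animal, and, chosen after seeing the data, leaving out the shallowest library.

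The genes and lists were chosen with earlier results of these data known. Genes named with values are the 21 called ones, the most abundant per kilobase and the most changed in WT of each subfamily, the 4 of smallest p in each comparison of genotypes, and known non-neuronal channels, 37 in all. Results for some of these genes are not reported here, though all 68 are in the counts. Kcnh1, Kcnh2, Kcnh4, Kcnab1, Kcnip1, Kcnt1 and the Kcnn genes, and the partner genes given with values, were added after their values were seen. The labels give a CL and a PI library from each animal. Deviations of the 2 libraries of an animal correlated with r from -0.14 to 0.33 in WT and from -0.01 to 0.17 in KO.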

Additional observations from a re-analysis of the deposited data

How the results depend on the processing

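Of the 35 values called in the comparisons of PI with CL, 35 were still called after centring each library on its median gene, with a pseudocount of 0.5 CPM and with a filter at 1 CPM. With no trend in the prior variance 24 were, and 8 genes were called in KO. Limma run on the deposited values gave 45 calls in WT, 46 in KO, 7 in PI KO against PI WT, 13 in CL KO against CL WT and 4 in the interaction. That test reads the drawn-in spread as the spread between animals, so that a call it keeps is no sign of stability. The share of all genes called by it is not given here. The replicate block gave 44 and 49 calls in WT and KO, to be read against the 45 and 46 of the same test without it. Centring moved the median of the 68 genes in WT to -0.19. It moved the share of higher genes among all calls from 49.1% to 37.8% in WT and from 50.8% to 38.5% in KO. Without replicate 6 of CL KO, the shallowest library, limma run on the deposited values gave 45 calls in KO, 11 in CL KO against CL WT and 3 in the interaction. The other CL KO values had been drawn in to quartiles that included that library, so this setting cannot isolate its part.

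Sign changes were limited to values that had not passed. Centring gave Kcnj6 -0.0301 in WT, Kcna6 -0.0092 and Kcnk1 -0.0113 in KO, and Kcna2 0.004 in PI KO against PI WT. Without replicate 6 of CL KO, Kcnk1 had -0.0034 and Kcnu1 0.002 in KO, and Kcnj8 0.0743 in CL KO against CL WT. The interaction was then 0.0024 for Kcnab2, -0.0103 for Kcnip4, -0.0017 for Kcnj2, 0.0042 for Kcnj3, -0.0394 for Kcnj8 and -0.0211 for Kcnj9. In WT Kcng2, at 0.717 CPM per kilobase, had a log2 fold change of -0.44 with an SE of 0.29, and how much of that SE comes from depth was not tested.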
